A study of Homo sapiens with 6 samples.

Results

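The 36 genes described here encode the protein-folding machinery of the endoplasmic reticulum (ER) and the unfolded protein response (UPR) that adjusts it. They were listed by symbol as sensors and transcription factors, ER chaperones, disulfide isomerases, oxidases and the machinery of ER-associated degradation. All 36 were found among the 63140 genes quantified, and all 36 were among the 14451 genes with enough counts to be tested. The cells were BT-549, an established human line of triple-negative breast cancer labelled epithelial and WT in genotype, grown for 24 h in adipocyte-conditioned medium (ACM, 3 libraries) or in unconditioned medium (UCM, 3 libraries). ACM was collected from OP9 mouse stromal cells that were turning into adipocytes in alpha-MEM with low serum, albumin, oleate and insulin. Its share in the culture is given as 50% in the sample labels and as undiluted in the study's supplementary methods. No formula is given for UCM, so the base medium, serum, oleate and insulin cannot be told apart from what the adipocytes secreted. All 6 libraries came from 1 cell line grown in wells of a 6-well plate, and no separate culture dates are given, so each p-value measures the spread between these wells.

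Total expected counts were 18011677 to 21053214 per library in ACM and 17135270 to 20975771 in UCM. Of 9 epithelial markers, summed levels were 2.09 to 2.88 CPM (counts scaled per 1e6) in ACM and 2.61 to 3.33 CPM in UCM, and the highest in any library was CDH1 at 1.83 CPM, although the line is labelled epithelial. Of 6 mesenchymal markers, summed levels were 4513 to 5064 CPM in ACM and 4211 to 4383 CPM in UCM, and the part of this difference in the results below was not tested. Human adipocyte markers summed to 0.380 to 0.845 CPM in ACM and 0.117 to 0.853 CPM in UCM, and 4 of the 8 had no count in any library. ESR1 and PGR had no count in any library, and ERBB2 had 61.6 to 75.0 CPM. In bulk RNA, fewer cells with a transcript and less transcript per cell cannot be told apart.

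Proteins that enter the ER are folded by chaperones of the HSP70 and HSP90 families, by the lectins calnexin and calreticulin, and by disulfide isomerases. When unfolded protein accumulates, IRE1 (encoded by ERN1), ATF6 and PERK signal to the nucleus. IRE1 splices the XBP1 transcript into the form that encodes an active transcription factor, ATF6 is cut in the Golgi to release one, and PERK phosphorylates eIF2alpha, which favours translation of ATF4. ATF6 and spliced XBP1 are known to drive chaperone and degradation genes through promoter elements named ERSE, ERSE-II and UPRE. Proteins that fail to fold are trimmed by the EDEM mannosidases, bound by lectins such as OS9, and passed by the SEL1L and HRD1 (SYVN1) ubiquitin ligase and the derlins to the proteasome in the cytosol, the route called ER-associated degradation. The gene-level values do not separate spliced from unspliced XBP1.

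The 250 bases upstream of the RefSeq start (GRCh38.p14) are shown for the 3 genes with the smallest adjusted p-values and for 2 abundant chaperones. Only exact matches to these known elements are marked. A near match is left in lower case, as CCAAT and CCACA with 9 bases between in HERPUD1. Capitals mark the ERSE (CCAAT and CCACG with 9 bases between), the ERSE-II (ATTGG and CCACG with 1 base between), the CARE element bound by ATF4 (TGATG and AA with 1 base between), or, in SYVN1, the 5 letters CCACG alone, each read on both strands.
HERPUD1, chr16:56931892-56932141, plus strand: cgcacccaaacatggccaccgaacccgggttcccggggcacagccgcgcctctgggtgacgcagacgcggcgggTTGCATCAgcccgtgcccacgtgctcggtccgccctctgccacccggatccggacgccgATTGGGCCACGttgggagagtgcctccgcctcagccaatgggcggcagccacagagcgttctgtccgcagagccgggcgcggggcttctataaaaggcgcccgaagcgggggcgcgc
XBP1, chr22:28800570-28800819, minus strand: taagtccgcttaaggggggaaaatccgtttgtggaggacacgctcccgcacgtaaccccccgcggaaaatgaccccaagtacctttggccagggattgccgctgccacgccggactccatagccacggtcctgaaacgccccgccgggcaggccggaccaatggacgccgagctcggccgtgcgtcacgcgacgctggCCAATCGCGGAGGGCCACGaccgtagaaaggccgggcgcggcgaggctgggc
SYVN1, chr11:65134520-65134769, minus strand: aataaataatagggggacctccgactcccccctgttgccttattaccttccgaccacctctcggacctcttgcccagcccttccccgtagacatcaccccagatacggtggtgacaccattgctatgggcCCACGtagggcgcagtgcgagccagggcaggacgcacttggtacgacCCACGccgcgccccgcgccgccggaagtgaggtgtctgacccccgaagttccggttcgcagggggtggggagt
HSPA5, chr9:125241344-125241593, minus strand: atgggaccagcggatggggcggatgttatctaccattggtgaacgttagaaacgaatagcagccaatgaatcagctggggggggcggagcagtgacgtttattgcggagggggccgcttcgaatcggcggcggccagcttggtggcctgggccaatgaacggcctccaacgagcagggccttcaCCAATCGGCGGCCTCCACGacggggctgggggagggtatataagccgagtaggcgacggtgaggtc
CALR, chr19:12938359-12938608, plus strand: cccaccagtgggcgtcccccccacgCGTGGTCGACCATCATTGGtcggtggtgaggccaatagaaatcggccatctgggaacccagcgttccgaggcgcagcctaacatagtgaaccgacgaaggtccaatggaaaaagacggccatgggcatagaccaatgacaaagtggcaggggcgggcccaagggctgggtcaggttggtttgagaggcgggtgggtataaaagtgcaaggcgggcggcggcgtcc

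RefSeq promoters were matched by symbol for 33 of the 36 genes, all but PDIA3, DERL1 and DERL3. Where a gene had several listed starts, a match in any of their windows counted. An ERSE stood in 8 of the 33 (CALR, CANX, CRELD2, ERO1B, HSP90B1, HSPA5, PDIA6 and XBP1), against 0.0916% of 27305 genes whose upstream windows of 250 bases were searched in the same way. In HSPA5 it lay at positions -66 to -48 from the start, in XBP1 at -52 to -34 and in CALR at -225 to -207. An ERSE-II stood in 3 (HERPUD1, HYOU1 and SDF2L1), against 0.0659% of all genes with a window, and in HERPUD1 it lay at -117 to -107. The UPRE, TGACGTGG, stood in DNAJC10 and HYOU1, against 0.780% of all genes with a window, and in HYOU1 it overlaps the ERSE-II. HERPUD1 was the 1 gene of the 33 with a CARE match, at -176 to -169, against 3.89% of all genes with a window. The letters CCAAT alone occurred in 28 of the 33 and in 37.0% of all genes with a window, and CCACG alone in 24 of the 33 and in 37.5%, counting those within an ERSE. These are matches of letters and not evidence of binding in these cells.

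XBP1 and 3 genes of ER-associated degradation were higher in ACM, and none of the 16 chaperones and isomerases passed the test. HERPUD1, XBP1, SYVN1 and EDEM3 were the 4 of 36 genes higher in ACM at an adjusted p of 0.05 or less by edgeR's quasi-likelihood test with Benjamini-Hochberg adjustment over 14451 genes, and 0 were lower. Across all genes tested, 484 (3.35%) were higher and 320 (2.21%) lower by this rule. At an unadjusted p of 0.05 or less, 13 of the 36 were higher, against 11.9% of all genes. The number lower was 0, against 11.5% of all genes. DESeq2 called 6 of the 36 higher and 0 lower, against 764 and 447 of the 14451 genes. With replicate number added to the edgeR fit, 10 of the 36 were called higher, 4 of them chaperones or isomerases, against 909 of the 14451. All 3 ACM libraries lay above all 3 UCM libraries for 15 of the 36, against 13.9% of all genes, and below them for 2, against 15.1%. The fitted log2 fold change of ACM against UCM had a median of 0.13 over the 36 genes and of -0.01 over all genes, and it was above 0 in 29 and below 0 in 7. HERPUD1 was the 1 gene whose log2 fold change passed 0.58.

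**Figure D1:**
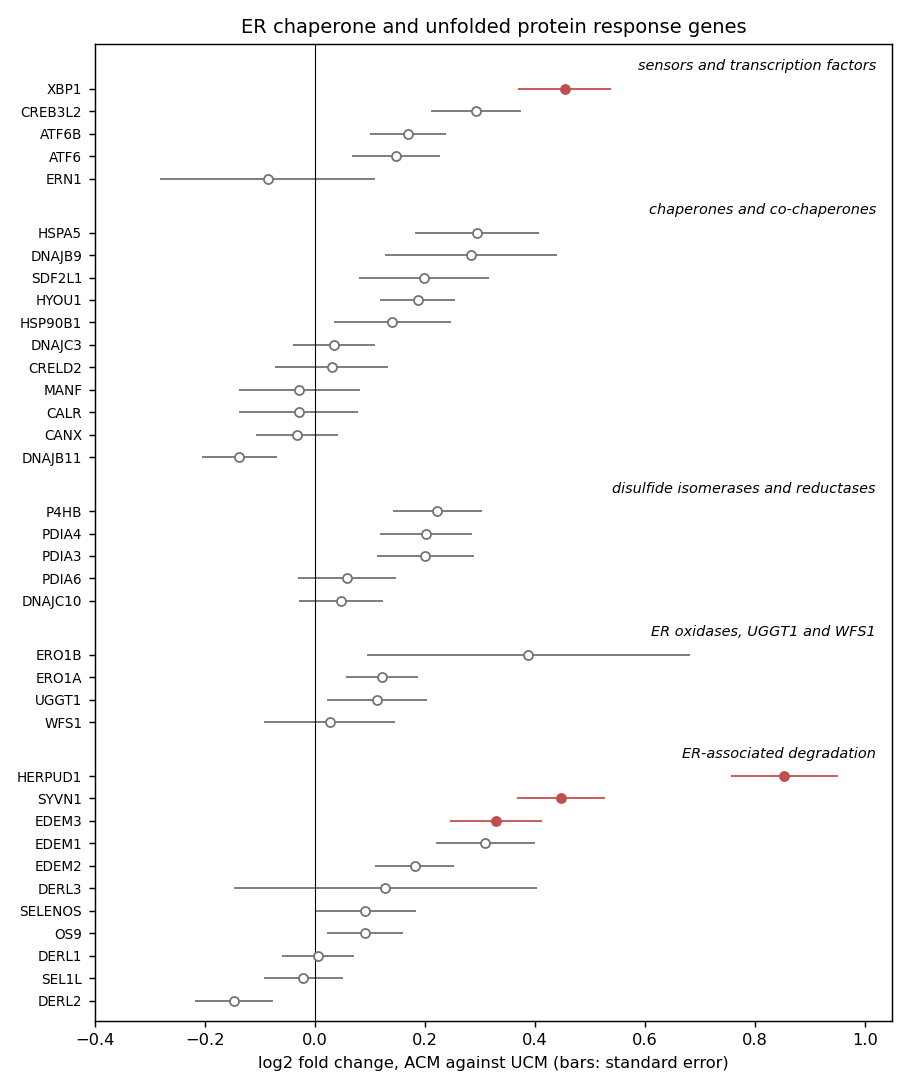
Log2 fold change of ACM against UCM (x axis, bars are the standard error from edgeR) for the 36 genes, grouped by role. Filled red points mark the 4 genes at an adjusted p of 0.05 or less, which are XBP1 among the sensors and factors and HERPUD1, SYVN1 and EDEM3 among the degradation genes, with HERPUD1 farthest to the right at 0.85.

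Of the 5 sensors and transcription factors, XBP1 rose and the other 4 did not pass the test. XBP1 (ENSG00000100219, GRCh38 chr22:28794555-28800597) encodes the factor made active by IRE1. Its level was 97.1, 111 and 95.4 CPM in ACM and 68.5, 78.9 and 74.5 CPM in UCM. The groups did not overlap, and the fold was 1.37 (log2 0.45, SE 0.08, edgeR adjusted p = 0.0151). The adjusted p of XBP1 was 0.0619 without ACM replicate 2 and 0.0548 without UCM replicate 3, with the log2 fold change at 0.38 and 0.47.

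ERN1, which encodes IRE1 itself, was scarce, at 8.27, 7.32 and 7.66 CPM in ACM and 10.8, 7.10 and 6.71 CPM in UCM. Its groups overlapped, with UCM replicate 1 the highest of the 6, and its log2 fold change was -0.09 with an edgeR adjusted p of 0.840, or 0.18 without that library. ATF6 stood at 48.3, 50.7 and 53.5 CPM in ACM and 47.0, 47.6 and 43.0 CPM in UCM. Its paralog ATF6B, a weaker activator of the same elements, stood at 89.1, 97.4 and 90.1 CPM in ACM and 79.2, 83.9 and 83.0 CPM in UCM. In both, every ACM library lay above every UCM library in CPM, but the log2 differences of 0.15 (ATF6, edgeR adjusted p = 0.300) and 0.17 (ATF6B, 0.174) did not pass. CREB3L2, a membrane-bound relative of ATF6 that drives secretory pathway genes in cartilage, had 57.4, 63.3 and 55.1 CPM in ACM against 46.9, 50.6 and 45.9 CPM in UCM. These groups did not overlap either, and the log2 fold change of CREB3L2 was 0.29 (SE 0.08, edgeR adjusted p = 0.0660), which passed in 5 of 15 alternative fits.

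The degradation genes held 3 of the 4 calls. HERPUD1 (ENSG00000051108, chr16:56932142-56944864) encodes HERP, an ER membrane protein that organises the HRD1 ligase complex and is a standard marker of the UPR. Its level was 108, 107 and 86.4 CPM in ACM against 51.5, 59.1 and 56.2 CPM in UCM. The lowest ACM library was well above the highest UCM library, and the fold was 1.81 (log2 0.85, SE 0.10, edgeR adjusted p = 0.0022). HERPUD1 passed in all 15 alternative fits, with the log2 fold change from 0.80 to 0.95 when each library was left out in turn and adjusted p up to 0.0141 over the alternatives.

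SYVN1 (ENSG00000162298, chr11:65121780-65134532) encodes the HRD1 ubiquitin ligase that HERP helps to assemble. SYVN1 had 91.0, 92.4 and 80.1 CPM in ACM and 61.9, 68.4 and 62.9 CPM in UCM. No libraries overlapped, and the fold was 1.36 (log2 0.45, SE 0.08, edgeR adjusted p = 0.0132). It fell short of the threshold without ACM replicate 2 (0.0603) and without UCM replicate 3 (0.0601). SEL1L, the adaptor that holds HRD1 to its substrates, had 92.3, 89.3 and 83.1 CPM in ACM and 94.4, 86.0 and 88.1 CPM in UCM. The SEL1L groups overlapped throughout, with a log2 fold change of -0.02 (SE 0.07, edgeR adjusted p = 0.900).

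The EDEM proteins trim mannose from misfolded glycoproteins and so mark them for removal. EDEM3 (ENSG00000116406, chr1:184690237-184754907) had 60.7, 67.5 and 64.4 CPM in ACM and 55.9, 48.7 and 48.6 CPM in UCM, a fold of 1.26 (log2 0.33, SE 0.08, edgeR adjusted p = 0.0473). The groups did not overlap, but the call was near the threshold and held in 8 of 15 alternative fits. Leaving out any of the libraries except UCM replicate 1 ended the call, as did log2(TPM + 1) values, with an adjusted p of 0.264. EDEM1 had 87.1, 93.9 and 75.6 CPM in ACM and 73.6, 67.0 and 66.3 CPM in UCM (log2 0.31, SE 0.09, edgeR adjusted p = 0.0728). It passed in 5 of 15 alternative fits. EDEM2 had 48.9, 49.3 and 48.5 CPM in ACM and 42.4, 43.1 and 43.9 CPM in UCM (log2 0.18, SE 0.07, adjusted p = 0.161 by the same test). All 3 EDEM genes thus had every ACM library above every UCM library, as did 13.9% of all genes, and 1 of the 3 passed the test.

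The derlins, which are thought to form the channel out of the ER, stood at other values. DERL2 had 52.6, 51.6 and 52.8 CPM in ACM and 56.8, 60.5 and 56.7 CPM in UCM, so that ACM lay below UCM in every library (log2 -0.15, edgeR adjusted p = 0.244). DERL1 had a log2 fold change of 0.01 and DERL3, at 2.56 to 5.77 CPM, of 0.13, both with overlapping groups. SELENOS, which tethers the cytosolic segregase to the derlins, and OS9, a lectin for trimmed glycoproteins, both had a log2 fold change of 0.09 with overlapping groups. Over the 11 degradation genes, 3 were higher and 0 lower by the test, against 3.35% and 2.21% of all genes. Of the 11, 9 had a log2 fold change above 0, and the median was 0.13.

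**Figure D2:**
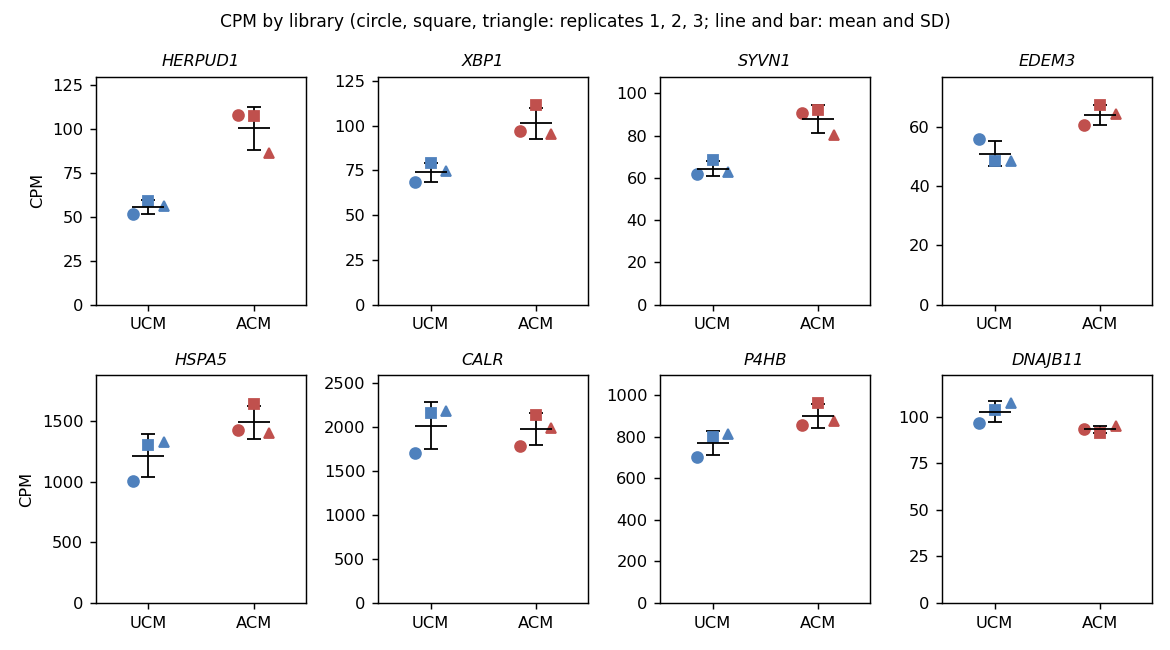
Level in CPM (y axis from 0) of the 4 genes called and of 4 folding genes in each library. Circles, squares and triangles are replicates 1, 2 and 3 in UCM (blue) and ACM (red), and the line and bar are the mean and SD of 3 libraries. The ACM and UCM points are clear of each other in HERPUD1, XBP1, SYVN1 and EDEM3, and also do not overlap in HSPA5 and P4HB. They interleave in CALR and are reversed in DNAJB11. UCM replicate 1 is the lowest point in HERPUD1, XBP1, SYVN1, HSPA5, CALR and P4HB, but not in EDEM3 or DNAJB11.

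The most abundant chaperones stood far above every degradation gene, and no chaperone was called. Per length, the highest UCM levels were those of CALR (1798 ± 211 TPM, SD, n = 3), which encodes calreticulin, CANX (816 ± 22.6 TPM), which encodes calnexin, and HSPA5 (661 ± 92.7 TPM), which encodes BiP. These 3 genes did not overlap each other across the UCM libraries. The next genes down, PDIA3 (538 ± 29.3 TPM), P4HB (503 ± 34.9 TPM) and HSP90B1 (447 ± 34.7 TPM), each overlapped the gene above. HERPUD1 stood at 68.2 ± 6.75 TPM in UCM and XBP1 at 67.5 ± 4.28 TPM. Other chaperones were scarcer than most degradation genes, as DNAJB9 at 8.46 TPM and DNAJC3 at 19.7 TPM. The lowest of the 36 were DERL3 at 6.53, ERN1 at 2.29 and ERO1B at 0.877 TPM. The 36 genes together took 0.701, 0.782 and 0.749% of all TPM in ACM and 0.634, 0.721 and 0.737% in UCM, which overlap.

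HSPA5 (ENSG00000044574, chr9:125234853-125241382), the HSP70 chaperone of the ER lumen that also holds the sensors inactive, had 1426, 1644 and 1399 CPM in ACM and 1010, 1306 and 1327 CPM in UCM. The groups did not overlap, yet the highest UCM library was close to the lowest ACM library. Its log2 fold change was 0.30 (SE 0.11, edgeR adjusted p = 0.152), and 0.19 (adjusted p = 0.193) without UCM replicate 1. HSPA5 passed in 2 of 15 alternative fits. HYOU1, the nucleotide exchange factor of BiP, had 523, 535 and 522 CPM in ACM and 432, 471 and 485 CPM in UCM, also without overlap (log2 0.19, SE 0.07, edgeR adjusted p = 0.133). HSP90B1, the ER form of HSP90, had 765, 993 and 819 CPM in ACM and 698, 813 and 826 CPM in UCM, with overlap (log2 0.14, edgeR adjusted p = 0.475). The log2 fold change of HSP90B1 was 0.02 without ACM replicate 2 and 0.08 without UCM replicate 1.

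The lectin chaperones, the most abundant of the 36, did not pass the test. CALR had 1780, 2141 and 1993 CPM in ACM and 1704, 2156 and 2176 CPM in UCM (log2 -0.03, SE 0.11, edgeR adjusted p = 0.905). CANX had 1422, 1607 and 1509 CPM in ACM and 1489, 1573 and 1578 CPM in UCM (log2 -0.03, SE 0.07, adjusted p = 0.840 by the same test). The ACM and UCM libraries of both genes interleaved.

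Among the smaller folding factors, DNAJB11, a J-domain partner of BiP, lay below UCM in every ACM library, at 93.4, 91.5 and 95.3 CPM against 96.8, 104 and 108 CPM, and did not pass the test (log2 -0.14, edgeR adjusted p = 0.260). DNAJB9, the J-protein that recruits BiP to IRE1, had 13.8, 17.3 and 11.4 CPM in ACM and 11.8, 12.0 and 11.1 CPM in UCM (log2 0.28, edgeR adjusted p = 0.313, or log2 0.11 without ACM replicate 2). SDF2L1, a partner of the BiP cycle, had 71.7, 73.6 and 73.6 CPM in ACM and 51.6, 64.7 and 74.8 CPM in UCM (log2 0.20, or 0.08 without UCM replicate 1 and 0.34 without UCM replicate 3). The secreted ER proteins MANF and CRELD2, both standard UPR targets, had log2 fold changes of -0.03 and 0.03, and DNAJC3, the co-chaperone also known as p58IPK, of 0.03, all with overlapping groups. Over the 11 chaperones and co-chaperones, 0 were called by edgeR and 0 by DESeq2, and the median log2 fold change was 0.03. Of the 11, 2 were higher at an unadjusted p of 0.05 or less by edgeR, against 11.9% of all genes. ACM lay wholly above UCM in 2 and wholly below in 1, against 13.9% and 15.1% of all genes.

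The disulfide isomerases make and reshuffle disulfide bonds. P4HB, the founding member of the family, had 858, 964 and 875 CPM in ACM and 704, 796 and 811 CPM in UCM (log2 0.22, SE 0.08, edgeR adjusted p = 0.130). PDIA4 had 480, 553 and 524 CPM in ACM and 406, 474 and 472 CPM in UCM (log2 0.20, SE 0.08, adjusted p = 0.176 by the same test). Neither overlapped between groups. PDIA3, which works with calnexin and calreticulin on glycoproteins, had a log2 fold change of 0.20 with overlap (0.12 without ACM replicate 2), PDIA6 of 0.06 and the reductase DNAJC10 of 0.05. Of the 5, 0 were called by edgeR or DESeq2, and 3 were higher at an unadjusted p of 0.05 or less by edgeR, against 11.9% of all genes. The median was 0.20, or 0.14 without UCM replicate 1. Without ACM replicate 2 the median was 0.12, with 1 of the 5 below 0.

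ERO1A and ERO1B, the oxidases that recharge the isomerases, had every ACM library above every UCM library in CPM, as did 13.9% of all genes. In TPM the groups overlapped for both genes. ERO1A had 93.8, 99.8 and 92.7 CPM in ACM and 89.1, 86.6 and 87.3 CPM in UCM (log2 0.12, edgeR adjusted p = 0.300). ERO1B was near the limit of detection, at 1.34 to 2.28 CPM, and its log2 fold change of 0.39 carried an SE of 0.29. UGGT1, the sensor that sends unfolded glycoproteins back to calnexin, had 128, 129 and 129 CPM in ACM and 137, 108 and 111 CPM in UCM, with UCM replicate 1 the highest of the 6. Its log2 fold change was 0.11 (edgeR adjusted p = 0.502), and without that library 0.24 (adjusted p = 0.0448). WFS1, the Wolfram syndrome protein of the ER membrane, had a log2 fold change of 0.03 with overlap.

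The chaperones and isomerases (16 folding genes) were then set against the 11 degradation genes within each library. The mean log2(CPM + 0.5) of the folding genes was 8.03, 8.20 and 8.07 in ACM and 7.85, 8.06 and 8.07 in UCM, a difference of 0.11 with overlapping groups. The mean of the degradation genes was 6.06, 6.07 and 5.93 in ACM and 5.76, 5.85 and 5.84 in UCM, a difference of 0.21 with the groups apart. Folding minus degradation was 1.97, 2.13 and 2.14 in ACM and 2.09, 2.22 and 2.23 in UCM, or 2.08 ± 0.097 against 2.18 ± 0.079 (SD, n = 3). The difference of -0.10 was of the size of the spread within each group and the groups overlapped. With the median over genes in place of the mean, folding minus degradation was 2.23, 2.42 and 2.58 in ACM and 2.70, 2.83 and 2.91 in UCM, or 2.41 ± 0.17 against 2.81 ± 0.10 (SD, n = 3). On medians the difference was -0.40, larger than the spread, and every ACM library lay below every UCM library. The median of the degradation genes differed by 0.53 and that of the folding genes by 0.12. The middle degradation gene was DERL2 in each UCM library, but EDEM1, SEL1L and EDEM1 in ACM replicates 1, 2 and 3. DERL2 and SEL1L had fitted log2 fold changes of -0.15 and -0.02, so the 0.53 sets different genes against each other. By gene, 0 of 16 folding genes and 3 of 11 degradation genes were called higher, against 3.35% of all genes. At an unadjusted p of 0.05 or less by edgeR, 5 of the 16 and 5 of the 11 were higher, against 11.9% of all genes. The median log2 fold changes of the folding and degradation genes were 0.10 and 0.13. The folding median was 0.04 without ACM replicate 2 or without UCM replicate 1, and 0.17 without UCM replicate 3. Without ACM replicate 1 it was 0.17 against 0.13 for the degradation genes, so their order turned. In both groups replicate 1 had the lowest value of folding minus degradation.

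**Figure D3:**
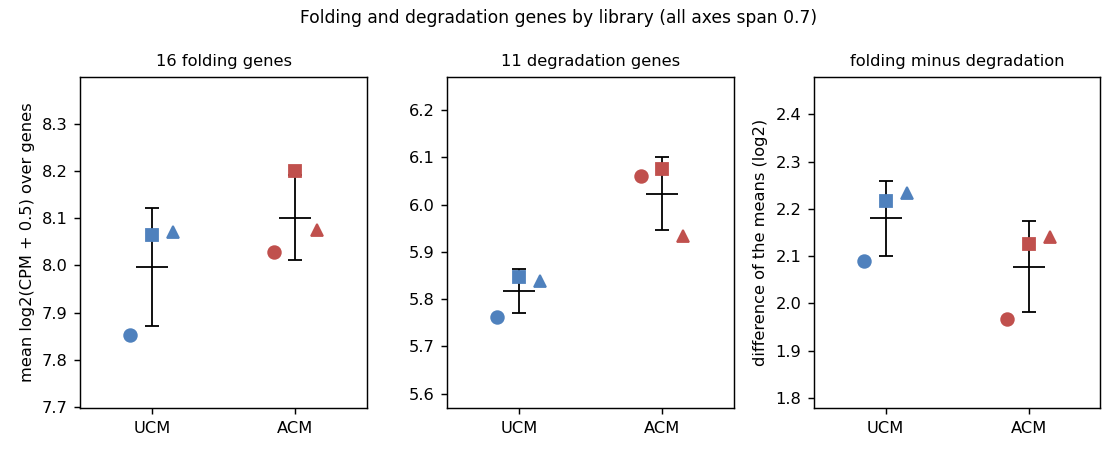
Mean log2(CPM + 0.5) of the 16 folding genes (left), of the 11 degradation genes (middle) and their difference (right) in each library, with symbols for replicates 1 (circle), 2 (square) and 3 (triangle) and lines and bars for mean and SD of 3 libraries. All axes span the same range without starting at 0. The degradation means are apart between groups, with ACM from 5.93 to 6.07 and UCM from 5.76 to 5.85, and the other 2 panels overlap.

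ERSE-bearing genes were described in the same way. The 8 genes with an exact ERSE match had a median log2 fold change of 0.10, with 1 of them called (XBP1). HERPUD1, with CCACA in place of CCACG, is not among them. The 3 with an ERSE-II had a median of 0.20, with 1 called (HERPUD1). Over all genes tested the median was -0.01 and 3.35% were called higher, and 4 of the 36 genes were called. Whether an element goes with a change was not tested. All 4 called genes held the letters CCACG within the window, as did 24 of the 33 genes with a promoter. The window of SYVN1 held CCACG without a CCAAT, and the windows of HSPA5 and CALR held a full ERSE with fitted log2 fold changes of 0.30 and -0.03, neither called.

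RSEM also gives an effective length for each gene, the mean usable length of its transcripts weighted by their abundance, which moves when transcript usage moves. It was shorter in every ACM library than in every UCM library for 2 of the 36 genes and longer for 0, against 3.70% and 5.49% of all genes tested. The effective length of DNAJB9 was 1521, 1565 and 1500 bases in ACM and 2126, 2129 and 1700 bases in UCM. That of EDEM1 was 3997, 4228 and 4252 bases in ACM and 4594, 4946 and 5220 bases in UCM. Because TPM divides by this length, both genes differed more in TPM than in CPM. DNAJB9 stood at 12.8, 15.4 and 10.99 TPM in ACM and 8.05, 7.99 and 9.34 TPM in UCM, without the overlap seen in CPM, and its log2 fold change on log2(TPM + 1) was 0.56 (limma adjusted p = 0.0798). EDEM1 stood at 30.8, 30.7 and 25.7 TPM in ACM and 23.2, 19.1 and 18.2 TPM in UCM, with 0.51 on that scale (limma adjusted p = 0.0668). Which transcripts changed cannot be read from gene-level files.

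**Figure D4:**
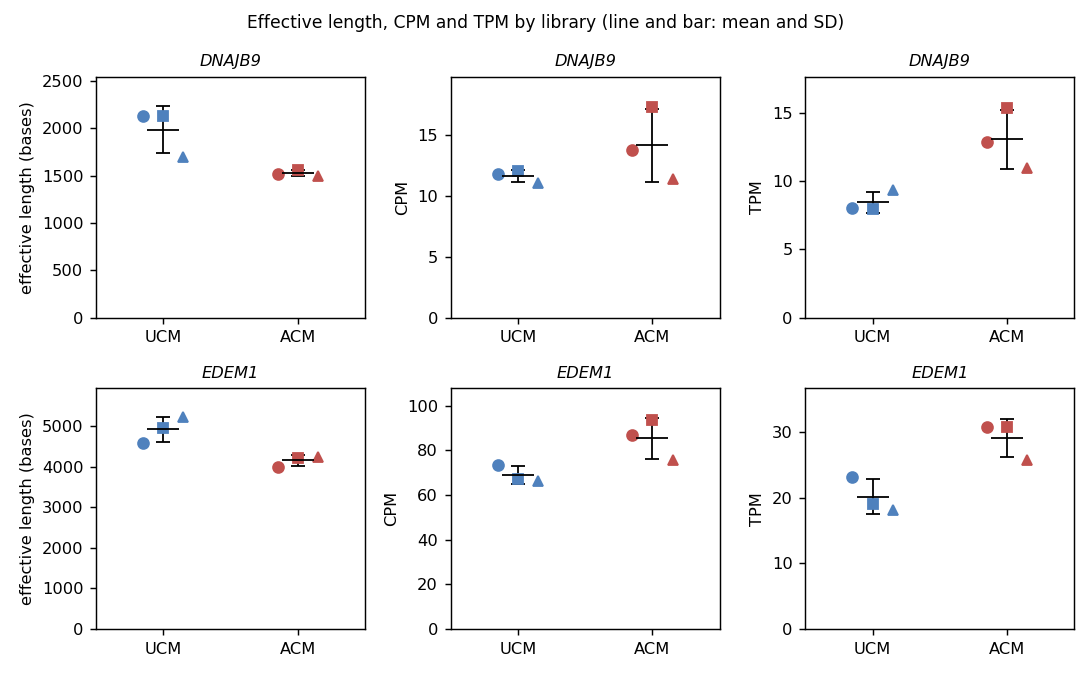
Effective length in bases (left), CPM (middle) and TPM (right) of DNAJB9 (top) and EDEM1 (bottom), each axis from 0, with circles, squares and triangles for replicates 1, 2 and 3 and lines and bars for mean and SD of 3 libraries. In both genes the ACM lengths lie below the UCM lengths, and DNAJB9 overlaps between groups in CPM but not in TPM.

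Other genes of the pathway were counted from lists, some of whose members are known to be shared between stress pathways. The PERK and ATF4 arm had 9 of 14 genes higher in ACM and 0 lower, against 3.35% and 2.21% of all genes. Its median log2 fold change was 0.57, against -0.01 over all genes. The list holds targets of ATF4, which amino acid shortage and other stresses also induce without the ER. SESN2, a stress-induced inhibitor of mTORC1, had 35.6, 41.7 and 34.2 CPM in ACM and 20.1, 18.9 and 18.3 CPM in UCM (log2 0.96, edgeR adjusted p = 0.0019). NUPR1, a stress-induced chromatin protein, had 33.1, 32.6 and 34.0 CPM against 20.5, 20.2 and 19.7 CPM (log2 0.72, edgeR adjusted p = 0.0023). ASNS, asparagine synthetase, had 69.7, 96.7 and 95.6 CPM against 41.0, 38.7 and 33.2 CPM (log2 1.21, edgeR adjusted p = 0.0034). All 3 genes had every ACM library well above every UCM library. ATF4 itself was among the 9 called (log2 0.34, edgeR adjusted p = 0.0177, up to 0.0964 over the alternatives). ATF4, EIF2AK3, which encodes PERK itself, and DDIT3, which encodes the pro-apoptotic factor CHOP, were picked out after their values were seen. EIF2AK3 had a log2 fold change of 0.33 (edgeR adjusted p = 0.111), and DDIT3, with 11.6, 12.7 and 9.08 CPM in ACM and 10.6, 14.7 and 15.3 CPM in UCM, of -0.28 (edgeR adjusted p = 0.383). DDIT3 was the 1 gene of the 14 with a log2 fold change below 0, and 13 were above 0. On log2(TPM + 1), 11 were above 0 and 3 below. ATF3 and PPP1R15A, also picked out after their values were seen, had log2 fold changes of 0.05 and 0.10 with overlapping groups.

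The proteases and cofactors that serve ATF6 and the ERSE (10 genes) had 0 calls by edgeR and by DESeq2 and a median of -0.05. At an unadjusted p of 0.05 or less by edgeR, 2 were higher and 1 lower, against 11.9% and 11.5% of all genes. Of 37 other ER folding enzymes, 36 were tested, with a median of 0.14, and 4 were higher and 0 lower, against 3.35% and 2.21%. FKBP10, a collagen prolyl isomerase, had a log2 fold change of 0.38 (edgeR adjusted p = 0.0158), MOGS, the glucosidase that begins glycan trimming, of 0.34 (0.0222) and HSPA13, an HSP70 relative, of 0.35 (0.0382). All 4 of these calls were lost in TPM and when ACM replicate 2, UCM replicate 2 or UCM replicate 3 was left out. Of 31 other degradation genes, 1 was higher and 1 lower, close to the 3.35% and 2.21% of all genes, with a median of 0.05. FBXO2, a ubiquitin ligase subunit that binds glycans, was higher at 7.94, 6.82 and 5.16 CPM against 3.55, 3.66 and 4.20 CPM (log2 0.81, edgeR adjusted p = 0.0482). NGLY1, the cytosolic N-glycanase, was lower at 41.1, 40.6 and 40.1 CPM against 50.9, 48.5 and 49.9 CPM (log2 -0.29, edgeR adjusted p = 0.0434). Both calls were lost in TPM. NGLY1 was also lost when any library was left out, and FBXO2 when any library but ACM replicate 3 was left out.

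Some transcripts are known to be cleaved by active IRE1. Their cleavage was not measured here, and IRE1 activity was not tested. Of 5 listed, 4 were tested. By edgeR, 0 were lower at an unadjusted p of 0.05 or less, against 11.5% of all genes. DESeq2 called 0 lower, and edgeR called 1 higher, against 3.35% of all genes. COL6A1, a collagen chain, was the higher gene, with a log2 fold change of 0.40 (edgeR adjusted p = 0.0349), and its call was lost without ACM replicate 1 or 2 or UCM replicate 2 or 3.

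**Figure D5:**
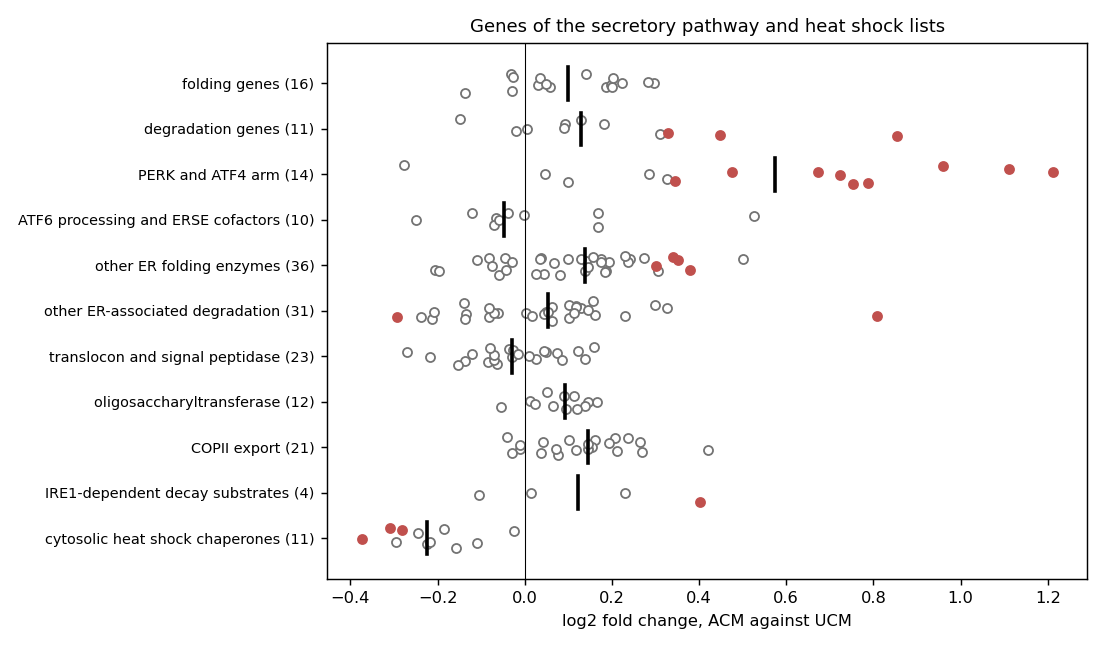
Log2 fold change of ACM against UCM (x axis) of each tested gene in the folding, degradation and other lists, with the number tested in brackets. Filled red points passed an adjusted p of 0.05 and black bars are list medians, which run from -0.22 in the cytosolic heat shock chaperones to 0.57 in the PERK and ATF4 arm, with the folding genes at 0.10 and the degradation genes at 0.13.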

How the data were processed

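Per the labels, polyA RNA was sequenced in paired reads. Trim Galore, STAR and RSEM were used on build GRCh38, in versions not given in the sources used here. The authors deposited, per library, the RSEM expected count of each gene (reads shared among transcripts, not scaled), the TPM (scaled by effective length and library) and the effective length. A deposited table of fold changes with p-values was not used. Whether the libraries were stranded is not given, so overlapping antisense genes cannot be separated.

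Symbols and positions came from GENCODE 44, which matched 61547 of 63140 identifiers with version and 994 more without it. Expected counts were rounded, filtered with filterByExpr (14451 genes left), scaled by TMM and tested with edgeR 4.0.16 in R 4.3.3 (robust quasi-likelihood fit on group, Benjamini-Hochberg adjustment over all genes tested, called at an adjusted p of 0.05 or less). The fit was tested on simulated data beforehand. CPM is the rounded count over the TMM-scaled library size. SE is the log2 fold change over the square root of F. The coefficient of biological variation was 0.115. The contrast of folding and degradation genes used log2(CPM + 0.5). Alternatives used DESeq2 1.42.0, limma 3.58.1 on log2(TPM + 1) and log2(TPM + 0.1), other scalings and filters, protein-coding genes only, a replicate block, and each library left out. Leaving out replicate 1 of both groups was added after the data were seen. All 36 genes were described by role, and of each other list up to 3 genes with the smallest p among those called with at least 1 CPM on average were named. The genes, lists and roles were chosen with earlier results of these data known.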

Additional observations from a re-analysis of the deposited data

How the results depend on the processing

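Against 484 genes higher and 320 lower, DESeq2 gave 764 higher, a filter of at least 1 count in total 1045 and 679, limma on log2(TPM + 1) 230 and 132, limma on log2(TPM + 0.1) 234 and 138, and the 2 replicates numbered 1 left out 1017 and 726. Leaving out 1 library gave 125 to 738 higher and 62 to 572 lower. Of the 36 genes, 4 were higher, against 7 with at least 1 count in total (CREB3L2, HSPA5 and EDEM1 added) and 1 to 6 with a library left out. HERPUD1 alone remained without ACM replicate 2 or UCM replicate 3. No setting called any of the 36 lower.

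Whether replicate numbers pair the wells was not settled. Deviations of same-numbered libraries correlated at 0.359, 0.0364 and 0.228. ACM replicates 1 and 2 each correlated best with their own number in UCM, but ACM replicate 3 with UCM replicate 2 (0.244). The libraries numbered 1 also had the most counts, 21053214 in ACM and 20975771 in UCM, against 17135270 to 18591257 in the others. The replicate block gave 909 higher, 703 lower and 10 of the 36 higher, adding CREB3L2, HSPA5 (adjusted p = 0.0338), P4HB, PDIA3, PDIA4 and EDEM1.

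Folding minus degradation differed by -0.10, and by -0.15 to -0.05 with a library left out. With medians over genes it differed by -0.40, with the groups apart but the middle degradation gene not the same. Over all 36 genes and 16 alternatives, 541 of 576 values kept their sign and call, or were uncalled and changed sign by less than their SE. Of the rest, 18 newly passed and 11 no longer passed. Another 6 uncalled values (of ERN1, WFS1, SEL1L and DERL3) changed sign by more than their SE, and 0 called values changed sign. The causes were not tested. ERO1B, DERL3 and ERN1 had the fewest counts and the widest SEs of the 36 (0.29, 0.27 and 0.20).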

Other observations

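Of 12 cytosolic heat shock chaperones, 11 were tested, and 3 were lower in ACM and 0 higher, against 2.21% and 3.35% of all genes. All 11 had a log2 fold change below 0 (median -0.22). HSPA8, the constitutive HSP70 of the cytosol, had 1555, 1551 and 1666 CPM in ACM and 1986, 2114 and 2087 CPM in UCM (log2 -0.37, edgeR adjusted p = 0.0164). DNAJB1, its J-domain partner, had 124, 118 and 109 CPM against 136, 150 and 149 CPM (log2 -0.31, edgeR adjusted p = 0.0384). HSP90AB1, the constitutive cytosolic HSP90, had a log2 fold change of -0.28 (edgeR adjusted p = 0.0433). None of the 3 calls held without ACM replicate 2, UCM replicate 2 or UCM replicate 3.

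Genes that bring proteins into and out of the ER were counted too. At an unadjusted p of 0.05 or less by edgeR, 11.9% of all genes were higher and 11.5% lower. Of 23 genes of the translocon and signal peptidase, 0 were called by edgeR or DESeq2, with 1 higher and 1 lower at an unadjusted p of 0.05 or less and a median log2 fold change of -0.03. Of 12 oligosaccharyltransferase genes, 0 were called by either tool and 0 passed at an unadjusted p of 0.05, with 11 above 0 and a median of 0.09. Of 21 genes of COPII export, which carries folded cargo to the Golgi, 0 were called by edgeR and 1 by DESeq2, with 7 higher and 0 lower at an unadjusted p of 0.05 or less and a median of 0.14.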
